A study of Saccharomyces cerevisiae with 3 samples.

Results

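The ribosomal stalk of Saccharomyces cerevisiae is described here through the mRNAs of its 5 proteins, RPP0, RPP1A, RPP1B, RPP2A and RPP2B. The ORFs were found by their systematic names YLR340W, YDL081C, YDL130W, YOL039W and YDR382W, and all 5 are among the 5293 ORFs listed in each library. Of those ORFs, 5199 averaged at least 1 RPKM (reads per kilobase of ORF and per 1e+06 reads) over the libraries and were kept, all 5 stalk ORFs among them. The libraries were RNA-seq of cytoplasmic RNA of BY4741, a haploid laboratory strain (mating type a) with several auxotrophic deletions, in mid-log growth in the rich glucose medium YPD. A poly(A)-selected library came from RNA bound to Dynabeads with oligo(dT), a RiboMinus library came from RNA depleted of rRNA with that kit, and an unselected library came from total RNA. Strain, medium and growth phase are the same in all 3, and each preparation has 1 library. No difference can therefore be set against the spread between replicates, and no test was run. Ribosome footprints were not analysed here.

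The stalk is a flexible arm of the large ribosomal subunit. P0 anchors it to the 25S rRNA and carries a pair of heterodimers, P1A with P2B and P1B with P2A, so that 4 acidic proteins stand beside each P0. All stalk proteins end in the same acidic tail, which binds the GTPases of translation and activates them, among them the elongation factor eEF2. P0 is essential in yeast, whereas cells live without the acidic P1 and P2 proteins, which also exchange with a free pool in the cytoplasm.

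The ends of the coding sequences are shown because they hold that common tail and because reads from near-identical stretches can be assigned to the wrong paralog. The last 48 coding bases, stop codon included, encode a tail whose final 13 residues are identical in the 5 proteins. Capitals mark the 36 bases that are the same in all 5 ORFs. The sequences are from the RefSeq R64 genome at chrXII:806778-806825 (plus strand) for RPP0, chrIV:309802-309849 (minus) for RPP1A, chrIV:230480-230527 (plus) for RPP1B, chrXV:254570-254617 (plus) for RPP2A and chrIV:1239777-1239824 (plus) for RPP2B.
RPP0: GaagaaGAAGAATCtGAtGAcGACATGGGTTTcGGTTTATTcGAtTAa
RPP1A: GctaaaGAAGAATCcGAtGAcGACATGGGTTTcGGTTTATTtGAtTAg
RPP1B: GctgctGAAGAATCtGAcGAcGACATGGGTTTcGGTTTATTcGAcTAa
RPP2A: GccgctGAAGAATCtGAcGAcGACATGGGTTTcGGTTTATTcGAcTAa
RPP2B: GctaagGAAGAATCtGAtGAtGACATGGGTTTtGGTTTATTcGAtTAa

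RPP1B and RPP2A, the partners of one heterodimer, share a longer end. Their last 27 residues are identical, and of the 84 bases of that stretch with the stop codon only 3 differ. Capitals mark those 3 bases in the sequences of RPP1B (chrIV:230444-230527, plus strand) and RPP2A (chrXV:254534-254617, plus strand), both R64.
RPP1B: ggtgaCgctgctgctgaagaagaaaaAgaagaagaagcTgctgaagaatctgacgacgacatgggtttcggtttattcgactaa
RPP2A: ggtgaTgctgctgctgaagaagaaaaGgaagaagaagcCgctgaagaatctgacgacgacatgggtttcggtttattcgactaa

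These ORFs have 16 stretches of 30 bases in common. Of the 30-base stretches of RPP1B, 5.48% occur in another listed ORF, against 5.82% for RPP2A, 0.329% for RPP2B and 0% for RPP0 and RPP1A. The RPKM of RPP1B and RPP2A can therefore include some reads of the other. Over their whole length the proteins are less alike. RPP2A and RPP2B are identical at 64.2% of the residues of the shorter protein, RPP1A and RPP1B at 57.5%, and RPP1B and RPP2A at 47.2%.

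RPP0 (chrXII:805887-806825, plus strand) has 939 coding bases and encodes 312 residues. RPP1A (chrIV:309802-310122, minus strand), RPP1B (chrIV:229906-230527, plus strand) and RPP2A (chrXV:254297-254617, plus strand) have 321 coding bases each, and RPP2B (chrIV:1239492-1239824, plus strand) has 333. RPP1B is split by an intron of 301 bases, and the other 4 ORFs have none. None of the 5 overlaps another annotated gene. Their coding GC content lay between 44.6% in RPP0 and 48.3% in RPP1B, against a median of 39.6% over the ORFs kept and 42.9% over the 53 other listed ribosomal proteins of the cytosol. Alanine made up 18.9% to 22.6% of the residues of the 4 acidic proteins and 11.5% of P0, against a median of 5.23% over the ORFs kept.

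The depth behind these values is high. The reads in listed ORFs, recovered from the steps of the low values, numbered 6467513 in the poly(A)-selected, 1317750 in the RiboMinus and 4452613 in the unselected library. The 5 stalk ORFs took 1.76% of them in the poly(A)-selected, 0.586% in the RiboMinus and 0.95% in the unselected library. The member with the fewest reads had 13004 in the poly(A)-selected, 284 in the RiboMinus and 4741 in the unselected library. Intervals are 95% intervals, cover counting error only and treat each read as independent. Reads that carry no molecular identifier can stem from the same molecule, so the intervals can be too narrow. As a check of the strain label, the a-specific genes MFA1, MFA2, STE2 and BAR1 had 147 to 2325 RPKM over the 3 libraries and the alpha-specific STE3, MF(ALPHA)1 and MF(ALPHA)2 had 0 to 15.3 RPKM.

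In unselected RNA the 5 stalk mRNAs were abundant and close to each other, within a 1.49-fold range. Poly(A) selection left them within a 1.54-fold range. After RiboMinus treatment they spread over a 6.46-fold range, with RPP0 and RPP1A high and RPP2B, RPP1B and RPP2A low.

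RPP0, the anchor, stood at 7177 RPKM in the poly(A)-selected library, 4381 RPKM in the RiboMinus library and 4985 RPKM in the unselected library. Its level was similar in the RiboMinus and unselected libraries and highest after poly(A) selection. It was the most abundant of the 5 in the RiboMinus and the unselected library.

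Of the P1 genes, RPP1A stood at 8182 RPKM in the poly(A)-selected library, 2926 RPKM in the RiboMinus library and 3537 RPKM in the unselected library. Its paralog RPP1B had 9515 RPKM, 792 RPKM and 3348 RPKM in the same libraries. The P1 paralogs were thus close in the poly(A)-selected and unselected libraries and far apart in the RiboMinus library. RPP1B ranked 17th among all listed ORFs in the poly(A)-selected, 144th in the RiboMinus and 50th in the unselected library, whereas RPP1A ranked 24th, 39th and 46th.

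Of the P2 genes, RPP2A stood at 6323 RPKM in the poly(A)-selected library, 678 RPKM in the RiboMinus library and 4021 RPKM in the unselected library. RPP2B had 9733 RPKM, 1095 RPKM and 4143 RPKM in those libraries. Both P2 mRNAs were lowest in the RiboMinus library. RPP2A was the lowest of the 5 there and in the poly(A)-selected library, but in the unselected library that place was held by RPP1B.

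**Figure D1:**
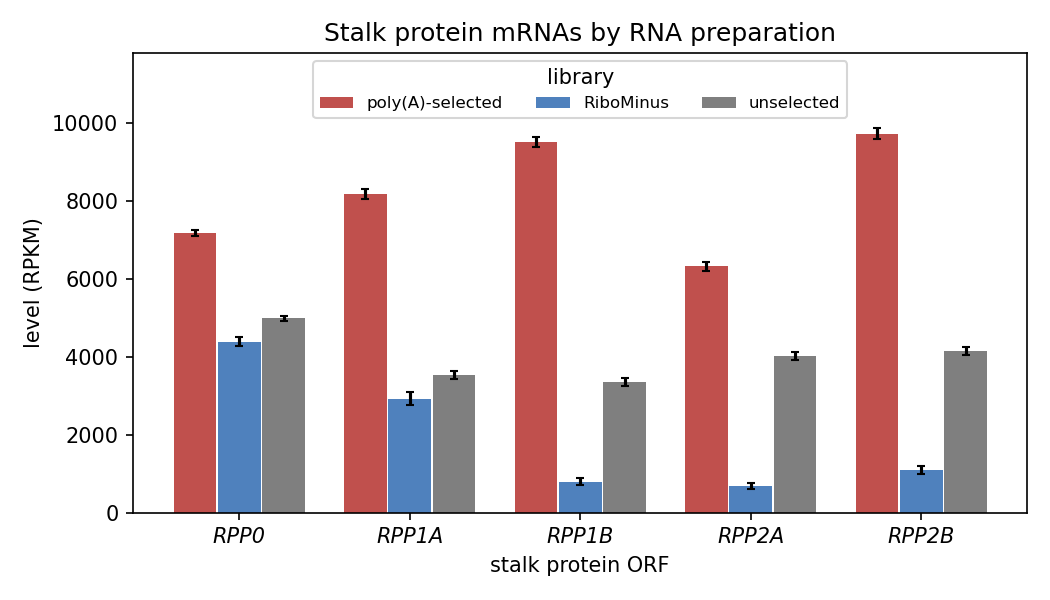
Levels of the 5 stalk ORFs (RPKM, vertical axis) in the poly(A)-selected, RiboMinus and unselected libraries, 1 library each. Bars are the deposited values and error bars are 95% counting intervals. The RiboMinus bars of RPP1B, RPP2A and RPP2B lie at 678 to 1095 RPKM, while those of RPP0 and RPP1A are near their unselected bars.

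The order of the levels differed between libraries. In the poly(A)-selected library it was RPP2B, RPP1B, RPP1A, RPP0 and RPP2A, with neighbours 1.02-fold to 1.16-fold apart and every interval above 1. In the RiboMinus library it was RPP0, RPP1A, RPP2B, RPP1B and RPP2A. There the step between RPP1A and RPP2B was 2.67-fold (interval 2.40 to 2.98), and RPP1B and RPP2A did not differ beyond counting error (1.17-fold, 0.995 to 1.37). In the unselected library it was RPP0, RPP2B, RPP2A, RPP1A and RPP1B, and RPP2B and RPP2A did not differ beyond counting error (1.03-fold, 0.993 to 1.07).

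Setting the poly(A)-selected against the unselected library asks whether capture by the poly(A) tail alters relative mRNA levels. Ratios are log2 values with 0.5 RPKM added in each library, centred on the median of the ORFs kept, so that 0 is the median ORF. The centre was 0.24 in this comparison, 0.076 between the RiboMinus and unselected libraries and 0.11 between the poly(A)-selected and RiboMinus libraries. ORFs at least 2-fold from the median ORF are counted, a limit on size alone. RPKM is a share of each library, and in a bulk culture fewer cells expressing a gene and less RNA per cell cannot be told apart.

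All 5 stalk mRNAs had ratios above 0 after poly(A) selection, although the signs of RPP0 and RPP2A turned when other ribosomal protein genes were the centre. RPP1B was at least 2-fold higher, with a ratio of 1.27 (interval 1.22 to 1.31), which is 2.41-fold. RPP2B at 0.99 (0.95 to 1.04) and RPP1A at 0.97 (0.93 to 1.02) were just short of 2-fold. RPP2A had 0.41 (0.37 to 0.46) and RPP0 had 0.29 (0.26 to 0.31). The count was 1 of 5 higher and 0 of 5 lower at 2-fold, against 6.6% and 8.64% of all ORFs. At 1.5-fold it was 3 of 5 higher, against 20.4% of all ORFs, and 0 of 5 lower, against 21.3%. Of the 132 ORFs that averaged 1000 RPKM or more, 20 (15.2%) were at least 2-fold higher in this comparison and 6 lower.

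Short ORFs were higher after poly(A) selection throughout the genome, with Spearman's rho of -0.759 between ratio and coding length across genes, which are not independent. The median ORF of the length of RPP1A had a ratio of 0.87. Set against ORFs of their own length, RPP1B was 0.40 higher, RPP2B 0.13 higher and RPP1A 0.10 higher, while RPP2A had a difference of -0.45. RPP0 had the median ratio of the ORFs of its length. The P2 paralogs therefore had different ratios at nearly the same length. RPP2A minus RPP2B was -0.58 log2 (interval -0.64 to -0.52), a difference that no centring affects. Of the 10 pairs of stalk ORFs, 9 differed in this comparison beyond counting error, and the exception was RPP1A with RPP2B at -0.022 (-0.084 to 0.039).

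**Figure D2:**
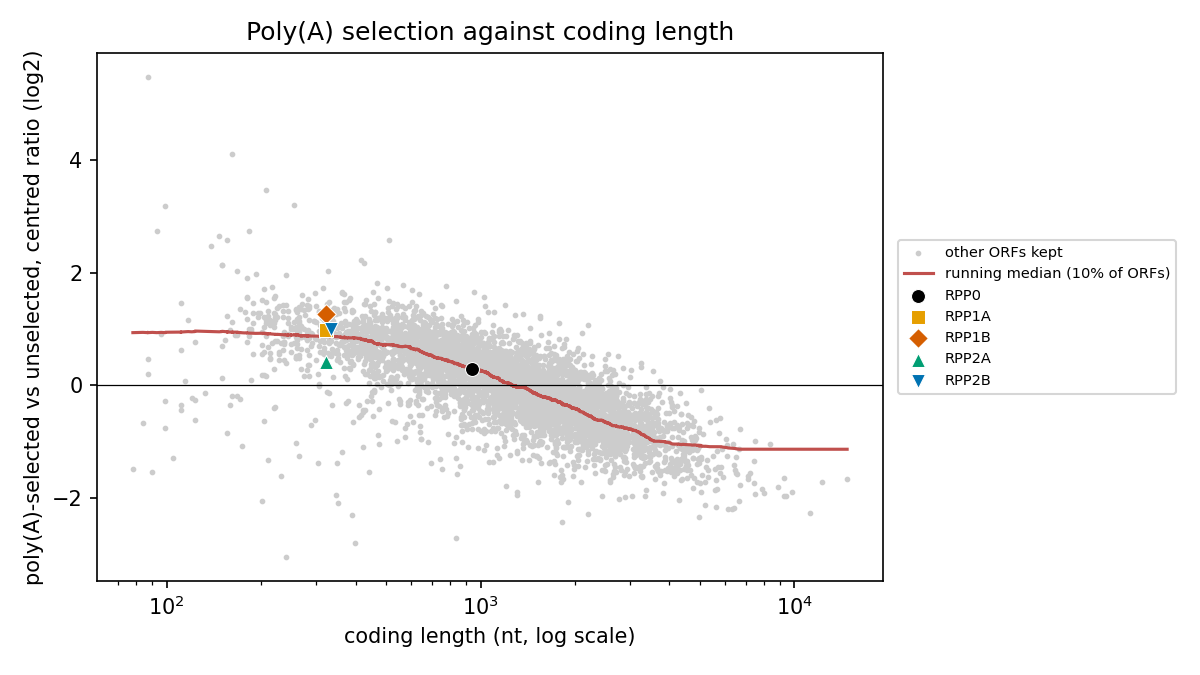
Centred log2 ratio of the poly(A)-selected to the unselected library (vertical axis) against coding length (nt, log scale) for the 5199 ORFs kept, with the running median over 10% of the ORFs. Of the 4 short stalk ORFs, RPP1B lies 0.40 above the running median and RPP2A 0.45 below it, and RPP0 lies on it.

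The direction given for RPP0 and RPP2A depends on what they are set against. Over the 53 other ribosomal proteins the median ratio was 0.65, and 12 of them were at least 2-fold higher and 0 lower. Centred on those genes, RPP0 had -0.36 and RPP2A had -0.23, while RPP1B had 0.62, RPP2B 0.35 and RPP1A 0.32. With that centre, or against ORFs of the same length or GC content, RPP1B was under 2-fold and the count was 0 of 5. The highest of the 53 were RPL37B at 1.35 and RPS29A at 1.34, and the lowest were RPS28B at -0.64 and RPL5, which binds the 5S rRNA, at -0.39. RPP1B was above 50 of the 53 and RPP0 above 14. RPL37B shares 11.3% of its 30-base stretches with another listed ORF. Of the annotated names of this family 53 of 132 are listed, and the value of a listed gene can include reads of a near-identical paralog.

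Setting the RiboMinus against the unselected library asks whether removal of rRNA by the RiboMinus probes alters relative mRNA levels. Here the stalk split. RPP2A had a ratio of -2.64 (interval -2.82 to -2.47), RPP1B -2.15 (-2.32 to -1.99) and RPP2B -2.0 (-2.13 to -1.86), which is 6.25-fold, 4.45-fold and 3.99-fold lower. RPP1A had -0.35 (-0.44 to -0.26) and RPP0 had -0.26 (-0.31 to -0.22). The count was 3 of 5 at least 2-fold lower, against 5.73% of all ORFs, and 0 of 5 higher, against 4.85%. At 1.5-fold the same 3 ORFs were lower, against 16% of all ORFs, and 0 of 5 higher, against 14.6%.

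The split divides the P1 paralogs. RPP1A minus RPP1B was 1.81 log2 (interval 1.62 to 1.99), a 3.50-fold difference. It also separates the partners of each heterodimer in one case but less so in the other. RPP1A minus RPP2B was 1.65 (1.48 to 1.81), and RPP1B minus RPP2A was 0.49 (0.25 to 0.73). RPP0 and RPP1A did not differ beyond counting error at 0.087 (-0.013 to 0.19), nor did RPP1B and RPP2B at -0.16 (-0.37 to 0.054). The other 8 of the 10 pairs did.

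Only 16 of the 5199 ORFs had a lower ratio than RPP2A, 31 a lower one than RPP1B and 39 a lower one than RPP2B. Many ORFs with extreme ratios have few reads, so the abundant ORFs were also taken alone, a choice made after the values were seen. Of the 132 ORFs that averaged 1000 RPKM or more, 33 (25%) were at least 2-fold lower and 9 higher. RPP2A was the third lowest of these 132, RPP1B ranked 6 and RPP2B ranked 7. Lower than RPP2A were the cell wall protein genes NCW1 at -2.95 and CCW12 at -2.82, and between RPP2A and RPP1B were YDR524C-B at -2.35 and the cell wall protein gene CWP2 at -2.23. RPP1A and RPP0 ranked 72 and 75, near the middle of the 132.

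The other ribosomal proteins of the cytosol lay on both sides in this comparison. Their median was -0.40, with 13 of the 53 at least 2-fold lower and 3 higher. The lowest were RPS26B at -1.94 and RPL31A at -1.92, so none of the 53 had a ratio as low as RPP2B, RPP1B or RPP2A. The counting interval of RPP2B (-2.13 to -1.86) includes both values, whereas those of RPP1B and RPP2A do not. Both values carry counting error of their own, which was not included, with 263 RiboMinus reads for RPS26B and 502 for RPL31A. Whether RPP1B lies below them beyond counting error was therefore not settled. The highest were RPL27A at 1.24 and RPL29 at 1.10. RPP0 and RPP1A each lay above 28 of the 53 and below 25. Centred on these genes, RPP0 had 0.14 and RPP1A 0.054, so the sign of their small ratios turned. RPP2A, RPP1B and RPP2B had -2.24, -1.75 and -1.59 and were still more than 2-fold lower.

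By level within each library, the stalk ORFs were set among the 58 listed ribosomal proteins of the cytosol, themselves included. The other 53 had a median of 6472 RPKM in the poly(A)-selected, 2305 RPKM in the RiboMinus and 3502 RPKM in the unselected library. RPP2A ranked 33rd of the 58 in the poly(A)-selected, 55th in the RiboMinus and 23rd in the unselected library. RPP1B ranked 10th, 54th and 33rd and RPP2B 9th, 50th and 18th in the same libraries. These 3 ORFs were thus near the bottom of the family in the RiboMinus library, where RPP0 ranked 19th and RPP1A 25th.

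**Figure D3:**
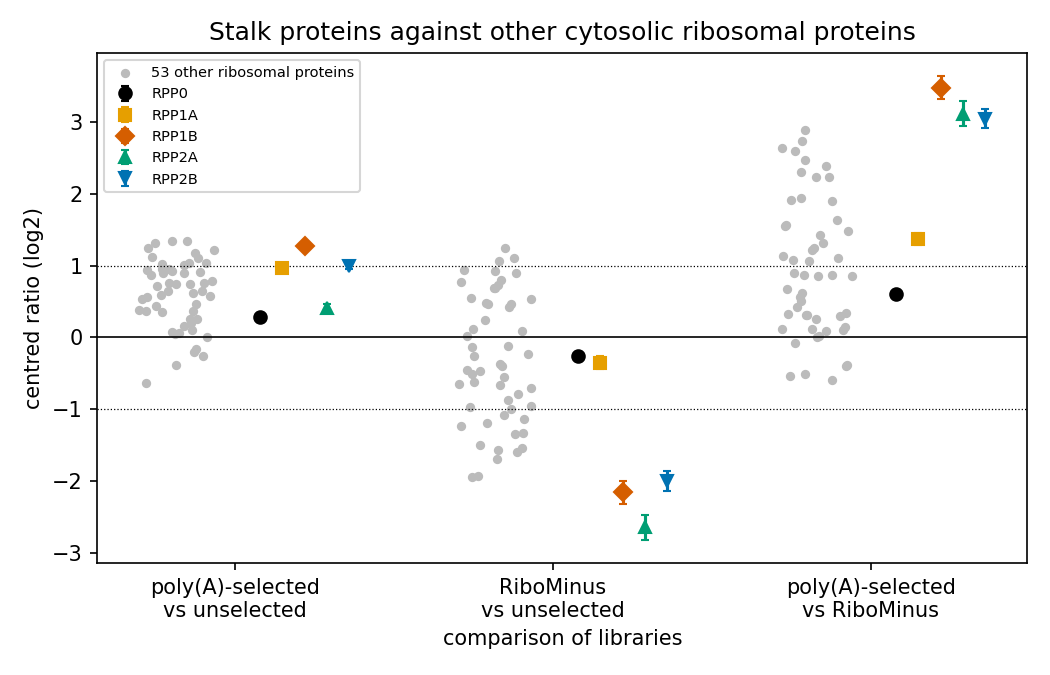
Centred log2 ratios (vertical axis) of the 5 stalk ORFs, with 95% counting intervals, and of the 53 other listed ribosomal proteins of the cytosol (grey) in 3 comparisons of libraries. Dotted lines mark 2-fold. In RiboMinus against unselected, RPP1B, RPP2A and RPP2B lie below all 53 grey points, and RPP0 and RPP1A lie among them. The interval of RPP2B there reaches above the lowest grey points, which are drawn without intervals of their own.

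ORFs rich in GC had low RiboMinus ratios in general, with Spearman's rho of -0.379 across genes. The stalk ORFs are GC-rich, and the median ORF at the GC content of RPP1B had a ratio of -0.48. Set against ORFs of their own GC content, RPP2A had -2.16, RPP1B -1.68 and RPP2B -1.49, whereas RPP0 and RPP1A both had 0.13. GC content differs little between the low and the other acidic members, at 46.7% in RPP1A, 47.0% in RPP2A, 47.7% in RPP2B and 48.3% in RPP1B. The part of base composition in the split was not tested.

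The stretches of 100 coding bases with the most GC are shown for the P1 paralogs, which have equal coding length and similar composition but different RiboMinus ratios. Capitals mark G and C, which make up 60% of the stretch in RPP1A (chrIV:309874-309973, minus strand) and 59% in RPP1B (chrIV:230358-230457, plus strand), both R64. The richest stretch of the other 3 ORFs had 57% or 58%.
RPP1A: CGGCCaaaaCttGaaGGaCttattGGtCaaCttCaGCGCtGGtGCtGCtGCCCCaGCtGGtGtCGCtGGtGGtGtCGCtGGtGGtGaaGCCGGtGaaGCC
RPP1B: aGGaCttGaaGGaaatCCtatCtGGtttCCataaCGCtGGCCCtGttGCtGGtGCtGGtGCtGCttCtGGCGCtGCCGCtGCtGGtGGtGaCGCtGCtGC

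Both stretches run into the alanine-rich and glycine-rich hinge that precedes the acidic tail. Since RiboMinus probes are directed against rRNA, the longest exact run that each ORF shares with the 25S or 18S rRNA was also measured. On the strand complementary to rRNA it was 13 bases in RPP1B, 11 in RPP0, RPP2A and RPP2B and 9 in RPP1A, against a median of 11 over the ORFs kept. On the same strand as rRNA it was 11 in RPP0 and RPP1A, 10 in RPP2B and 9 in RPP1B and RPP2A, against a median of 11. Across all ORFs kept, the rho of the RiboMinus ratio with these lengths was -0.046 for the complement and 0.061 for the same strand. The sequences of the probes were not used, and the part of probe binding in the split was not tested.

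**Figure D4:**
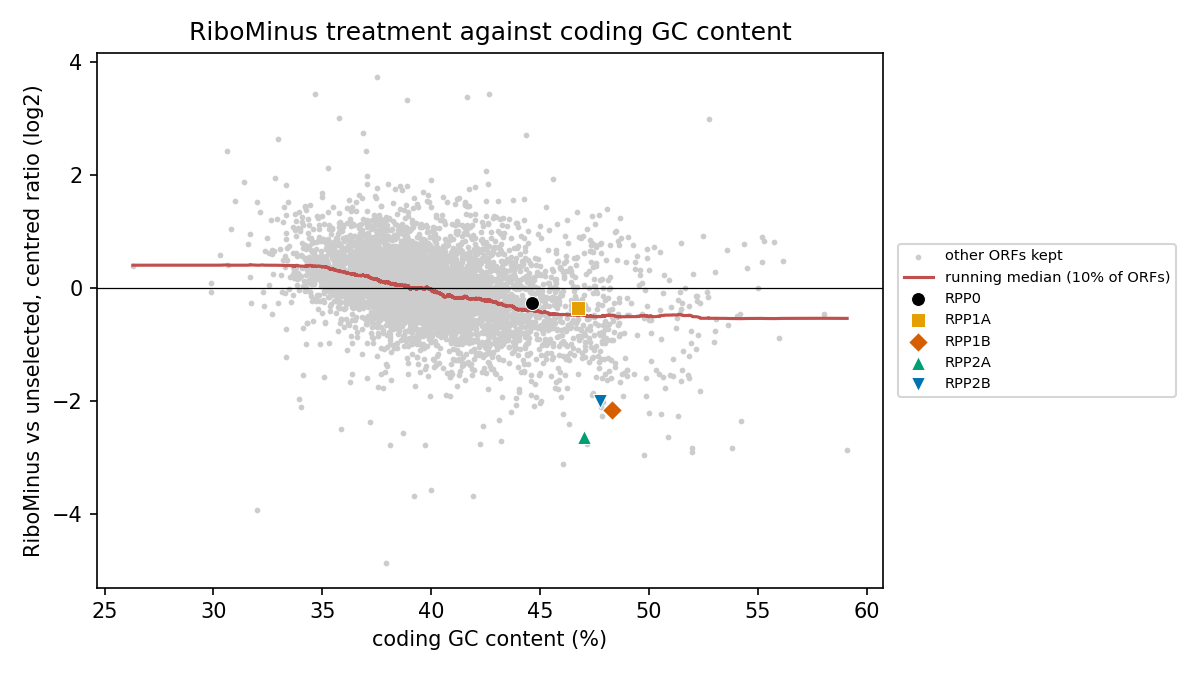
Centred log2 ratio of the RiboMinus to the unselected library (vertical axis) against coding GC content (%) for the 5199 ORFs kept, with the running median over 10% of the ORFs. RPP0 and RPP1A lie 0.13 above the running median, and RPP2B, RPP1B and RPP2A lie at -2.0 to -2.64, far below it.

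Between the poly(A)-selected and the RiboMinus library, which are the same libraries as above and no further evidence, the ratios of the acidic members were wide. RPP1B had 3.47 (interval 3.32 to 3.64), RPP2A 3.11 (2.94 to 3.29), RPP2B 3.04 (2.91 to 3.18) and RPP1A 1.37 (1.29 to 1.46). RPP0 had 0.60 (0.56 to 0.64). The count was 4 of 5 at least 2-fold higher, against 14.1% of all ORFs, and 0 of 5 lower, against 10.8%. At 1.5-fold it was 5 of 5 higher, against 25.8%, and 0 of 5 lower, against 24%. Of the 132 ORFs that averaged 1000 RPKM or more, 54 (40.9%) were at least 2-fold higher in this comparison and 7 lower. Centred on the 53 other ribosomal proteins, RPP0 had -0.27, so its sign turned, and RPP1A had 0.51. RPP1A had 0.48 against ORFs of its own length and 0.67 against ORFs of its own GC content. Under each of these 3 settings RPP1A was under 2-fold and the count was 3 of 5. Only 11 of the 5199 ORFs had a higher ratio than RPP1B. The 53 other ribosomal proteins had a median of 0.87, and 24 of them were at least 2-fold higher.

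The ratios between stalk mRNAs within a library do not depend on how libraries are scaled. In the assembled stalk 4 acidic proteins stand beside each P0, and the corresponding sum of mRNA levels is a ratio of RPKM, not of proteins. The summed level of the 4 acidic mRNAs over RPP0 was 4.70 (interval 4.65 to 4.76) in the poly(A)-selected library, 1.25 (1.19 to 1.32) in the RiboMinus library and 3.02 (2.96 to 3.08) in the unselected library. RPP0 alone made up 17.5% of the summed RPKM of the 5 ORFs in the poly(A)-selected, 44.4% in the RiboMinus and 24.9% in the unselected library. The 3 libraries therefore gave different mRNA proportions for the same strain. Each preparation has 1 library, so preparation and library cannot be told apart. RPP0 is longer than the acidic ORFs, and short ORFs were higher after poly(A) selection throughout the genome. For poly(A)-selected against unselected, the median ORF had a ratio of 0.29 at the length of RPP0 and 0.87 at that of RPP1A. The part of coding length in the ratios over RPP0 was not tested.

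The P1 mRNAs together were 2.47 times RPP0 (interval 2.43 to 2.50) in the poly(A)-selected library, 0.849 times (0.802 to 0.898) in the RiboMinus library and 1.38 times (1.35 to 1.41) in the unselected library. The P2 mRNAs together were 2.24 times RPP0 (2.21 to 2.27) in the poly(A)-selected library, 0.405 times (0.375 to 0.437) in the RiboMinus library and 1.64 times (1.60 to 1.68) in the unselected library. P2 over P1 was 0.907 (0.894 to 0.921) in the poly(A)-selected, 0.477 (0.437 to 0.520) in the RiboMinus and 1.19 (1.15 to 1.22) in the unselected library. P2 mRNA thus exceeded P1 mRNA in the unselected library only.

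For the heterodimer of P1A and P2B, RPP1A over RPP2B was 0.841 (interval 0.824 to 0.858) in the poly(A)-selected library, 2.67 (2.40 to 2.98) in the RiboMinus library and 0.854 (0.822 to 0.886) in the unselected library. This ratio was alike in the poly(A)-selected and unselected libraries, with overlapping intervals. For the heterodimer of P1B and P2A, RPP1B over RPP2A was 1.5 (1.47 to 1.54) in the poly(A)-selected library, 1.17 (0.995 to 1.37) in the RiboMinus library and 0.833 (0.801 to 0.865) in the unselected library. Here the poly(A)-selected library stood above 1 and the unselected library below it.

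**Figure D5:**
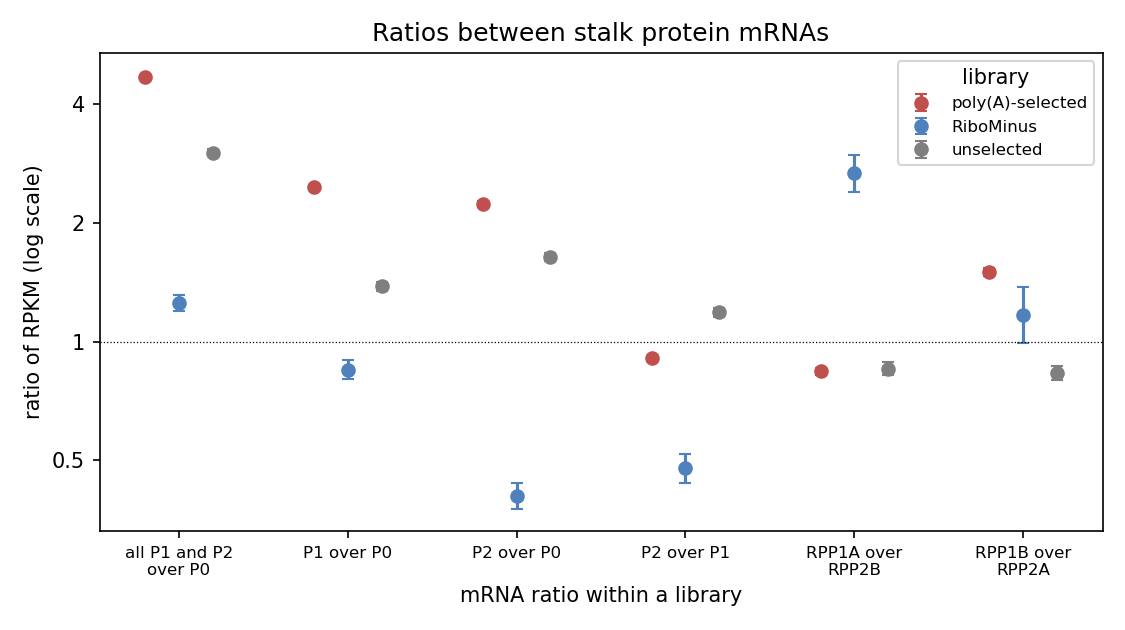
Ratios of RPKM between stalk mRNAs (vertical axis, log scale) within the poly(A)-selected, RiboMinus and unselected libraries, with 95% counting intervals. The dotted line marks equal levels. All acidic mRNAs over RPP0 stand at 4.70, 1.25 and 3.02, and RPP1A over RPP2B stands at 2.67 in the RiboMinus library and below 1 in the other libraries.

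ORFs with the most similar pattern were sought among 1539 others that averaged 100 RPKM or more, by the distance between their ratios to the unselected library over the 3 libraries. Nearest to RPP2B was another ribosomal protein gene, RPL31A, at 0.11 log2, with ratios of 0.91 after poly(A) selection and -1.92 after RiboMinus treatment. SNU13, which encodes a protein of the spliceosome and of snoRNPs, and the peroxiredoxin gene AHP1 followed at 0.19 and 0.21. Nearest to RPP2A were FIT3 at 0.060 and CCW12 at 0.30, both cell wall mannoprotein genes, and YDR524C-B at 0.33. By these distances the nearest ORF to RPP1B was farther from it than the nearest ORF of any other member was from that member. It was MIC10, a subunit of the mitochondrial MICOS complex, at 0.17, and NCE101 and OST5, a subunit of the oligosaccharyltransferase, were at 0.40 and 0.41. Their RiboMinus levels were low, at 44.3 RPKM for MIC10, 23.9 RPKM for NCE101 and 44.1 RPKM for OST5. No counting interval was computed for the distances, so their order can rest on counting error. RPP1A lay near RBL2, a tubulin folding cofactor, and PAM16 of the mitochondrial import motor, both at 0.033, and LOG1 at 0.066. RPP0 lay near YCR024C-B at 0.0078, CUE5, a ubiquitin-binding autophagy receptor, at 0.032, and RPC31 of RNA polymerase III at 0.037.

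Genes that build, modify or use the stalk showed no ratio like that of the low members in the RiboMinus library. Of the stalk base and assembly genes, 3 of 5 named were listed. MRT4, the P0-like factor that holds the place of P0 on the pre-ribosome, had ratios of 0.58 after poly(A) selection and 0.54 after RiboMinus treatment. YVH1, the phosphatase that releases Mrt4, had 0.59 and 0.075. RPL10, a large-subunit protein near the stalk base, had 0.37 and 0.92, with 9873 RPKM in the poly(A)-selected, 12975 RPKM in the RiboMinus and 6486 RPKM in the unselected library. RPL12A and RPL12B were not analysed here.

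The 4 subunit genes of casein kinase 2, which phosphorylates stalk proteins, were within 2-fold in both comparisons with the unselected library. CKA1 had ratios of 0.50 and 0.029, CKA2 -0.0027 and -0.28, CKB1 0.54 and -0.85 and CKB2 0.26 and 0.050 after poly(A) selection and RiboMinus treatment. Of the factors that bind the stalk or act with such factors, 6 of 11 named were listed. After poly(A) selection 2 of these were at least 2-fold lower, namely GCN1, an activator of the kinase Gcn2, at -1.93 and the elongation factor gene YEF3 at -1.46. Their coding lengths were 8019 and 3135 bases. GCN2, with 4980 coding bases, had -0.83, and FUN12, with 3009, had 0.27. After RiboMinus treatment all 6 were within 2-fold, between -0.52 for FUN12, which encodes eIF5B, and 0.50 for GCN2. SUP35, which encodes the release factor eRF3, had -0.80 after poly(A) selection and -0.070 after RiboMinus treatment, and GCN20, the partner of GCN1, had -0.80 and 0.45. The genes of eEF1A and eEF2 were not analysed here.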

How the data were processed

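RNA-seq of cytoplasmic RNA from BY4741 was available for 3 libraries, 1 per preparation. The values are RPKM that the authors computed and deposited with 2 decimals. The submitters' processing notes name Bowtie2, TopHat2 and the build sacCer3. Their versions and what counted the reads were not given in the sources used here. A further 2 columns of per-sample values that match no sample (footprints and Ribo-Zero) were not used.

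ORF names were matched to the RefSeq R64 annotation, 203 of 5293 after a hyphen was restored. Reads were recovered from the RPKM and the coding length without the stop codon. Among values below 100 reads, 99.1% came out whole, to within 0.1 read, in the poly(A)-selected library and 99.9% in the RiboMinus and in the unselected library. That RPKM is scaled to the reads in listed ORFs was inferred from the values.

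The filter was a mean of at least 1 RPKM and the pseudocount 0.5. Intervals of a level, of a ratio between libraries and of a ratio of single ORFs are exact binomial (Clopper-Pearson). Those of a sum of ORFs are Poisson on the log scale, and those of a difference between ORFs are from the conditional odds ratio. Trends are running medians over 10% of the ORFs. Python 3.11.15, numpy 2.4.6, scipy 1.17.1, pandas 2.3.3 and Biopython 1.88 were used, and the recovery of reads and ratios was tested on simulated data. The ORFs named for likeness are the 3 nearest to each member. Of the other ribosomal proteins, the 2 highest and 2 lowest per comparison with the unselected library are named, and from the other lists all listed genes. The members, lists, thresholds and alternatives were chosen with earlier results of these data known. The alternatives tried were other pseudocounts (0.1 and 2), all ORFs without the filter, a mean of at least 10 RPKM, no centring, centring on the other ribosomal proteins, removal of the trend with coding length or GC content, and a threshold of 1.5-fold. For ratios within a library they were a pseudocount of 2 and recovered reads per kilobase with the stop codon.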

Additional observations from a re-analysis of the deposited data

How the results depend on the processing

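The number of stalk ORFs at least 2-fold higher after poly(A) selection, 1 of 5, was the count that moved by more than 1.5 times. It was 2 with a pseudocount of 2 or with a mean of at least 10 RPKM, 3 with no centring or at 1.5-fold, and 0 when centred on the other ribosomal proteins or with the trend of coding length or of GC content removed. For poly(A)-selected against RiboMinus, the count of 4 of 5 higher was 3 when centred on the other ribosomal proteins or with the trend of coding length or of GC content removed, since RPP1A was then under 2-fold. After poly(A) selection the centred ratios of RPP1A and RPP2B to the unselected library lie just short of 2-fold, so small shifts of the centre move them across it. Of 54 counts under the alternatives, 47 stayed within 1.5 times the value given, among them all those of RiboMinus against unselected. There the ratio of RPP2A ranged from -2.65 to -2.16, that of RPP1B from -2.16 to -1.68 and that of RPP2B from -2.0 to -1.49. Of 120 alternative values of single ratios, 71 stayed inside their counting intervals, 49 did not, and no ORF past 2-fold changed sign. All 24 alternative values of the ratios within a library (acidic mRNAs over RPP0, P2 over P1 and both heterodimers) stayed inside their counting intervals. The alternatives for these ratios could change them only slightly, so this outcome says little. Trends with coding length or GC content and reads shared between paralogs were not varied for them. No paired analysis was possible because each preparation has 1 library. The RiboMinus library is the shallowest, and its 284 reads of RPP2A give the widest intervals.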
